A study of Mus musculus with 24 samples.

Results

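The 10 genes are described here through their 10 rows in the gene tables, which list 56691 genes. They encode the chloride and bicarbonate transporters of the intestinal epithelium, its main sodium proton exchanger, and the guanylin peptides with their receptor. Members were chosen by gene name (Cftr, Slc26a3, Slc26a6, Slc9a3, Slc12a2, Slc4a4, Guca2a, Guca2b, Gucy2c and Ano1), and all 10 were found once each and passed the filter on low counts in every fit. The study measured polyadenylated RNA in the distal jejunum of wild type (WT) mice and of Ptk6-/- mice (KO), which lack the intracellular tyrosine kinase PTK6 through a germline disruption present in all cells. Males and females of each genotype drank regular water (control) or water with 100 mM succinate for 7 days. These 3 factors give 8 groups of 3 mice, 24 libraries in all. Mice were age-matched, came from different litters of 1 colony on a C57BL/6 background, and were 9 to 11 weeks old at the end. Whole tissue was sequenced, so a lower level of a gene cannot be told apart from fewer cells of the type that makes it.

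Fluid secretion in the small intestine starts with chloride entry into crypt cells through NKCC1 (Slc12a2) on the basolateral side and chloride exit through CFTR (Cftr) on the apical side. Bicarbonate enters through the sodium bicarbonate cotransporter NBCe1 (Slc4a4) and leaves through CFTR or through the apical anion exchangers DRA (Slc26a3) and PAT-1 (Slc26a6). The exchanger NHE3 (Slc9a3) takes sodium back up at the brush border. Guanylin (Guca2a) and uroguanylin (Guca2b) are small peptides released into the lumen, where they bind guanylate cyclase C (Gucy2c); the cyclic GMP it makes opens CFTR and inhibits NHE3. Anoctamin 1 (Ano1) is a calcium-activated chloride channel that also marks the interstitial cells of Cajal, the pacemaker cells of the gut wall.

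Guca2a and Guca2b are neighbours. In the deposited tables, on GRCm39, Guca2a (ENSMUSG00000023247) lies at chr4:119494901-119496668 on the plus strand and Guca2b (ENSMUSG00000032978) at chr4:119513804-119516151 on the minus strand. Their ends face each other across 17135 bases that hold 0 other listed genes. Slc9a3 (ENSMUSG00000036123) lies at chr13:74269576-74315282 on the plus strand. The 250 bases before the start of each of these genes are shown because the 2 peptide genes varied together and Slc9a3 was the member past both call thresholds. They come from RefSeq on GRCm38.p6, run 5′ to 3′ in the direction of the gene, and were matched by symbol, as they were for 8 of the 10 members. Capitals mark matches, on either strand, to AGATAA, which GATA factors bind, or to GTTAAT, which is part of the site of HNF1; no 2 of the marked matches overlap. The windows are chr4:119637482-119637731 (plus) for Guca2a, chr4:119658946-119659195 (minus) for Guca2b and chr13:74121163-74121412 (plus) for Slc9a3.
Guca2a: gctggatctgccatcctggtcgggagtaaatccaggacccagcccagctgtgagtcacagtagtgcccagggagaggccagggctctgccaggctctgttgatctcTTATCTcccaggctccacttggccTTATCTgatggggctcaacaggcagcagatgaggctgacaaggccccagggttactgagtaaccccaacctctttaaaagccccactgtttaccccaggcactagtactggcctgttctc
Guca2b: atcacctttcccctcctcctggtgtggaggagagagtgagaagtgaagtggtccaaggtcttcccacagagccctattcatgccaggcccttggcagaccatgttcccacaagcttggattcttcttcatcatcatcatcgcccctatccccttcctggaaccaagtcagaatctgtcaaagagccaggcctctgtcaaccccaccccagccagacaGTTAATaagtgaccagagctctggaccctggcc
Slc9a3: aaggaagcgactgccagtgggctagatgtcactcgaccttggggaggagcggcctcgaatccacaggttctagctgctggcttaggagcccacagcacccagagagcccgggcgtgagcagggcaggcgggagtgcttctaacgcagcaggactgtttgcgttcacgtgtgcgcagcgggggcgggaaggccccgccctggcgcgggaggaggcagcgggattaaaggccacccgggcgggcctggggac
The Guca2a window holds AGATAA 2 times, on the reverse strand, starting 144 and 120 bases before the gene's start. AGATAA occurs in 9.99% of the 32851 windows of this length in the table, and in no other of the 8 matched members. The Guca2b window holds GTTAAT, 33 bases before the start; 6.43% of all windows hold it, as does that of Slc26a3. Searches for TATAA (in 22.8% of windows) and TTTAT (in 37.3%) gave no match in these 3 windows; Slc26a3 held both and Slc26a6 the latter. The 4 motifs were chosen as those of intestinal factors after the sequences had been seen, and a match is only a description of the letters.

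The libraries held 8080321 to 52824743 counts, with a median of 43017686.5. Ptk6 had 284 to 2405 counts in the WT libraries and 7 to 61 in the KO libraries. In all, 3 libraries stood apart: the ribosomal RNA gene Rn18s-rs5 took 51.2% of the counts in WT control male 1 and 29.7% in KO succinate male 1, the library with the fewest counts and, at 8285 CPM, the highest sum of distal ileum and colon markers, and in WT succinate female 2 heart markers summed to 15353 CPM against 12.7 to 196 in the other libraries. Lung markers (4 of 4 found) summed to 5.88 to 16.5 CPM in all 6 KO females and in WT succinate female 3, and to at most 0.72 CPM in the other 17 libraries, so that in females they moved with genotype; their part in the female results was not tested. Enterocyte markers, the defining genes of the labelled tissue's epithelium, were detected for 9 of 9 and summed to 16895 to 55582 CPM. The libraries also differed in how strongly log2 CPM increased with gene length, a slope of 0.03 to 0.44 per doubling of length. Levels within a gene are given in CPM (counts relative to the library total, scaled by TMM over all 24 libraries), and levels between genes in FPKM, which is per length.

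The guanylin peptides were by far the most abundant of the 10 transcripts. The median FPKM over the 24 libraries was 449.98 for Guca2a and 379 for Guca2b, and the receptor gene Gucy2c stood at 38.3. Among the apical exchangers Slc26a6 had a median FPKM of 45.7, above Slc9a3 at 14.7 and Slc26a3 at 10.5. The basolateral loaders were lower, with a median FPKM of 4.36 for Slc4a4 and 3.91 for Slc12a2, near that of the channel gene Cftr at 3.10. Ano1 was lowest at 1.30 FPKM. The peptide genes, at 206 to 1455 FPKM for Guca2a and 180.1 to 946 FPKM for Guca2b, lay above the other members in every library without overlap, the next being Slc26a6 at up to 65.1 FPKM. The ranges of the other neighbours in this order overlapped, down to 0.64 to 5.61 FPKM in Cftr against 0.12 to 6.30 FPKM in Ano1. Spread between mice of 1 group was unequal among members: the pooled within-group SD of log2 CPM was 0.91 for Guca2a, 0.75 for Guca2b and Slc9a3, and 0.35 for Slc12a2, against a median of 0.48 over the 15507 genes with a mean CPM of at least 1.

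**Figure D1:**
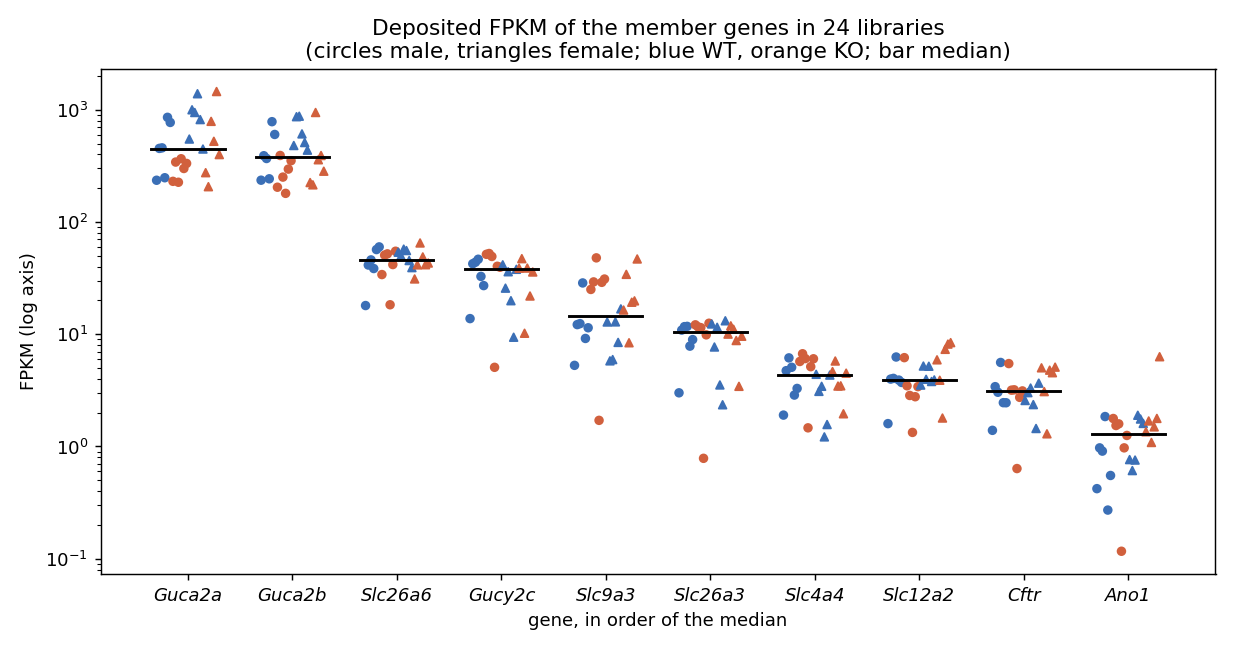
Deposited FPKM (log axis) of the 10 genes in the 24 libraries, in order of the median (bar); circles are males, triangles females, blue WT and orange KO. Guca2a and Guca2b sit above 180 FPKM in every library, and Ano1 has the lowest median, 1.30 FPKM.

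**Figure D2:**
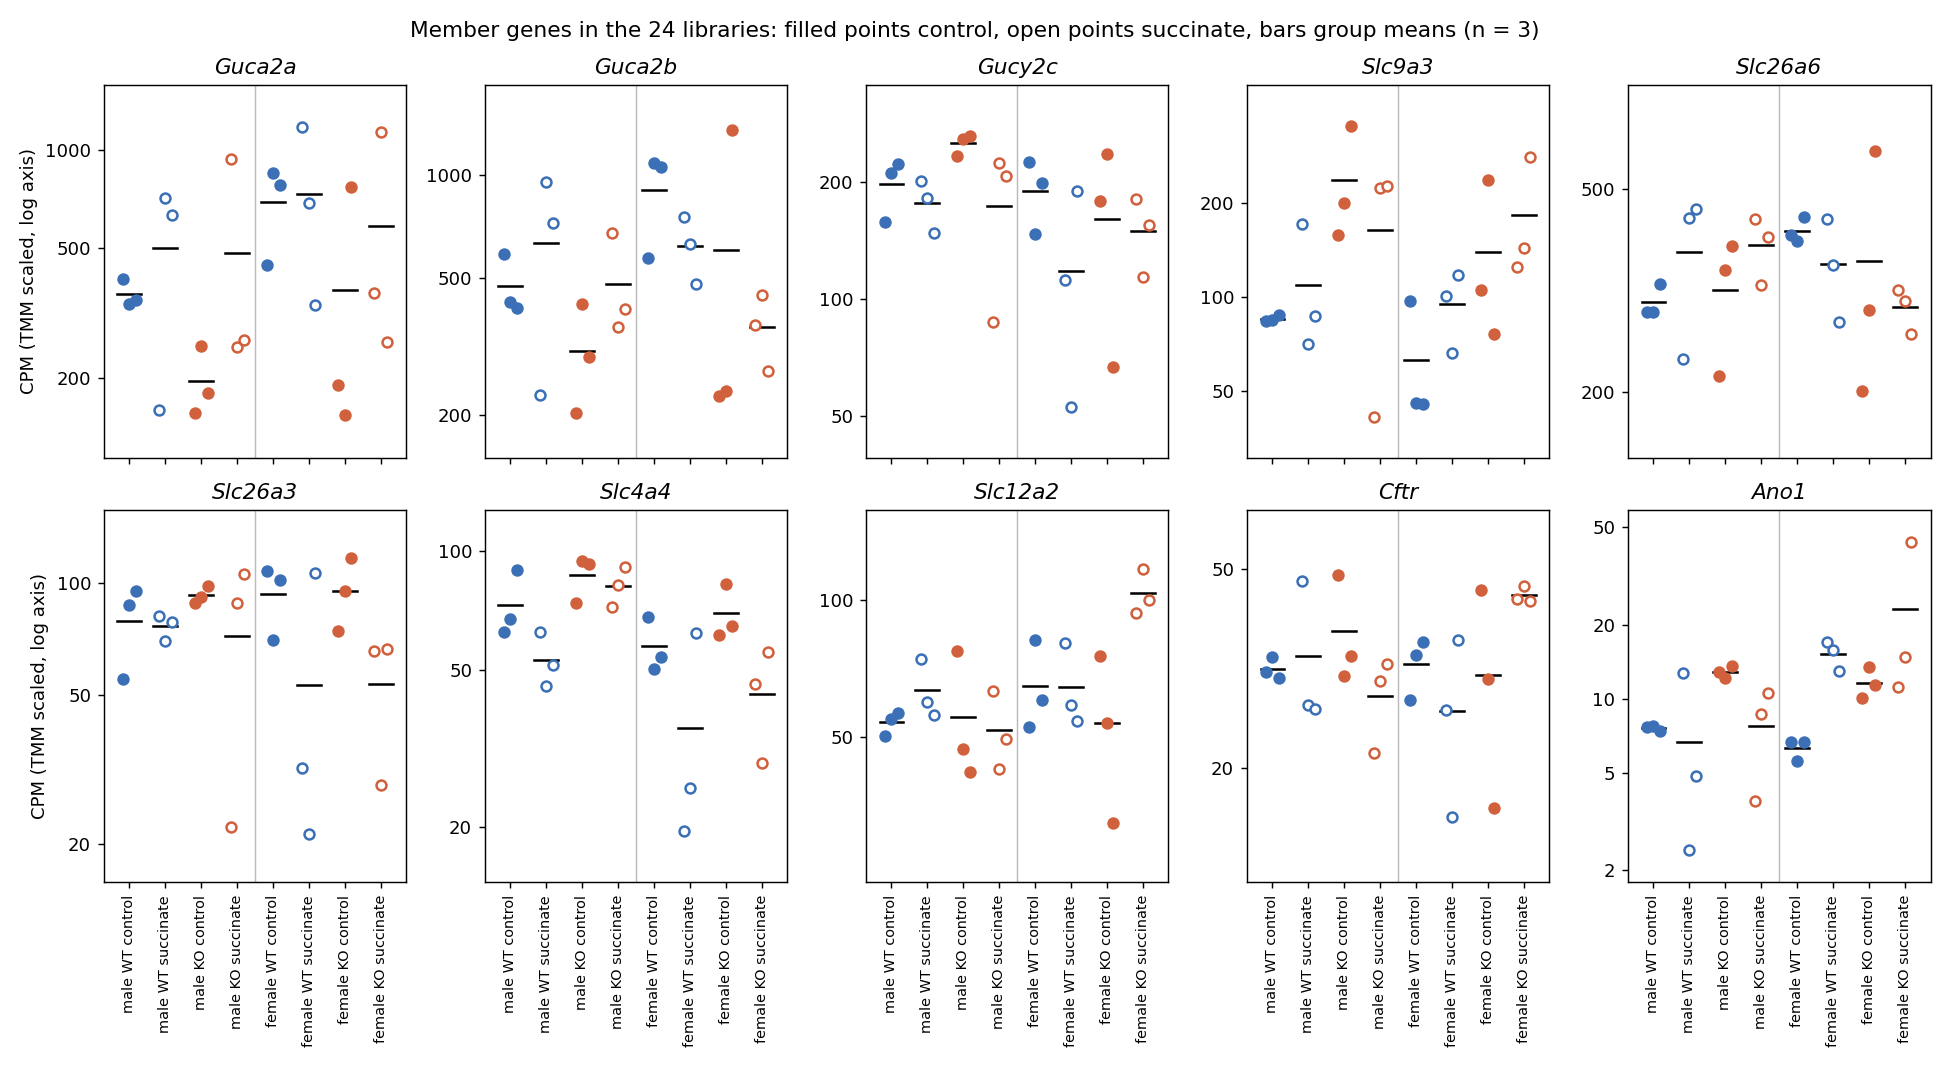
CPM (TMM scaled, log axes that differ between panels) of each gene in each library by group; filled points are control mice, open points succinate mice, blue WT, orange KO, and bars are means of 3. Slc9a3 and Ano1 are higher in the KO than in the WT control males without overlap, and in several groups 1 library lies far from the other 2.

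The comparisons asked what loss of Ptk6 and what succinate did to these genes in each sex. Slc9a3, the NHE3 gene of sodium and bicarbonate absorption, was the member that passed both thresholds (adjusted p under 0.05 and a change of at least 2-fold), and it did so in control males. It was at 83.8, 84.2 and 87.5 CPM in the 3 WT control males and at 158, 199 and 355 CPM in the 3 KO control males. The KO animals were all above the WT animals, and KO replicate 3 was well above the other KO replicates. The log2 fold change was 1.46 (SE 0.27; edgeR quasi-likelihood test, adjusted p = 0.035). In this comparison 0.739% of the 19218 genes tested were called, and 1 of the 10 members. The call was lost without WT control male 2 or 3 or KO control male 2 or 3, with log2 fold changes of 1.05 to 1.57 and adjusted p from 0.091 to 0.11, and with a correction for the gene-length slope (1.34, adjusted p = 0.072); the direction was kept in each. Of 15 marker lists, 6 also had sums that did not overlap between these groups, where 31.4% of all genes did not overlap. In KO control males proximal intestine markers were higher, at 499 to 627 CPM against 425 to 455 CPM in WT, as were the markers of interstitial cells of Cajal given with Ano1. The proximal sum was mostly Lct, which is also among the enterocyte markers. Medians over the 24 libraries were 308 CPM for Lct, 56.7 for Gata4, 3.23 for Cybrd1 and 0.31 for Onecut2. Paneth cell markers (5307 to 14615 CPM against 14722 to 17141 CPM), enteroendocrine markers (156 to 187 CPM against 201 to 223 CPM), tuft cell markers (35.2 to 37.7 CPM against 39.3 to 45.5 CPM) and erythrocyte markers (63.5 to 91.3 CPM against 100.2 to 127 CPM) were lower. Their part in the results for control males was not tested.

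In females without succinate Slc9a3 was at 96.8, 45.8 and 45.4 CPM in WT mice and at 105, 237 and 76.2 CPM in KO mice. These groups overlapped, since KO replicate 3 lay below WT replicate 1 (log2 fold change 1.20, SE 0.49, adjusted p = 0.44), and the value was 0.58 without KO control female 2. Under succinate the female groups did not overlap, at 101, 65.9 and 117 CPM in WT and 124, 143 and 281 CPM in KO mice (0.95, SE 0.42, adjusted p = 0.93; 0.49 without KO succinate female 3). Enterocyte markers did not overlap between these groups either, at 26511 to 35615 CPM in WT and 16895 to 20078 CPM in KO succinate females, and their part in the genotype values of succinate females was not tested. Under succinate the males did overlap, at 171, 70.5 and 86.7 CPM in WT and 41.1, 224 and 226 CPM in KO mice, and the lowest of these was the KO library with the fewest counts. Averaged over sex and water, Slc9a3 had a log2 fold change of 1.04 in KO over WT mice (SE 0.27, adjusted p = 0.25). The background was 0.0184% of 21694 genes called. DESeq2, which called 60 of 21694 genes, called this average (1.05, adjusted p = 0.019). So did edgeR without WT succinate male 1 (1.16, adjusted p = 0.039), in a fit that called 89 of 21560 genes. Without the 3 libraries that stood apart it was 1.10 (SE 0.25, adjusted p = 0.20).

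The guanylin gene Guca2a was lower in KO than in WT control males. Its level was 403, 338 and 348 CPM in WT and 156, 252 and 181 CPM in KO mice, with no overlap, and its log2 fold change of −0.91 (SE 0.20, adjusted p = 0.047) passed the test but not the 2-fold threshold. Guca2b, the uroguanylin gene, was at 591, 426 and 409.7 CPM in WT and 203, 422 and 294 CPM in KO control males, where KO replicate 2 was within the WT range (−0.66, SE 0.28, adjusted p = 0.19). Without WT control male 1 it was −0.43, and without KO control male 1 it was −0.44. Both values were lower in size with the correction for gene length, at −0.38 for Guca2a (adjusted p = 0.30) and −0.18 for Guca2b (adjusted p = 0.72). Guca2a's adjusted p was also above the threshold without each of the 6 libraries in turn, 0.062 to 0.15. The library slope itself separated these groups, at 0.18 to 0.23 in WT and 0.36 to 0.44 in KO control males.

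In control females 1 KO library differed from the others in both peptide genes. Guca2a was at 446, 853 and 779.6 CPM in the WT and 190.4, 155 and 772 CPM in the KO control females, and Guca2b at 572, 1084 and 1058 CPM and at 228, 235 and 1357 CPM. KO control female 3 thus held the highest Guca2b value of the series beside replicates that were among the lowest. With it edgeR, which called 3 of 19035 genes, called neither. Its values with the correction for gene length were −0.68 for Guca2a (adjusted p = 0.50) and −0.45 for Guca2b (adjusted p = 0.71). Voom with quality weights, which called 1972 of 19035 genes, called both (−1.82, adjusted p = 0.015 for Guca2a and −1.80, adjusted p = 0.016 for Guca2b). Without that library, the edgeR log2 fold changes were −1.95 for Guca2a (SE 0.33, adjusted p = 0.027) and −1.92 for Guca2b (SE 0.33, adjusted p = 0.027), in a fit that called 1808 genes against 3 with all libraries. The same library stood apart in other members and markers: Gucy2c was at 66.6 CPM against 179 and 235, Slc26a6 at 593 against 200.4 and 289, enterocyte markers summed to 55582 CPM against 21058 and 27251, and its length slope was 0.06 against 0.34 and 0.41. What set it apart was not tested.

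Succinate groups were uneven in both peptide genes. In KO males given succinate Guca2a was at 939, 249.9 and 262 CPM, against 156, 252 and 181 CPM in KO controls (log2 fold change 1.39, SE 0.59, adjusted p = 0.60). The 939 CPM came from the library with the fewest counts, and without it the log2 fold change was 0.36. In WT males given succinate replicate 1 was at 160.0 CPM for Guca2a and 229 CPM for Guca2b, below replicates 2 and 3 at 711 and 632 CPM and at 953 and 723 CPM. In females given succinate Guca2a ranged from 336 to 1173 CPM in WT and from 258 to 1133 CPM in KO mice. Guca2b, however, did not overlap between those genotypes, at 754, 629 and 481 CPM in WT and 366, 447 and 269 CPM in KO mice (−0.79, SE 0.36, adjusted p = 0.93). Averaged over sex and water, Guca2b had a log2 fold change of −0.60 in KO over WT mice (SE 0.28, adjusted p = 0.37), and of −0.94 without KO control female 3.

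Over the 24 libraries the 2 peptide genes followed each other and the library slope. Log2 CPM of Guca2a and Guca2b gave a Pearson r of 0.86 and a Spearman rho of 0.88, and r was 0.88 over deviations from group means. Guca2a against the gene-length slope gave r = −0.96 and rho = −0.96, and still r = −0.95 without the 2 libraries farthest from the median slope. Guca2b gave r = −0.85, and Slc9a3 gave r = 0.72. These are descriptions over 24 libraries that share their groups and their scaling, without a test. The slope is computed from all genes of a library, and its part in the results for these genes was not tested beyond the correction above.

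**Figure D3:**
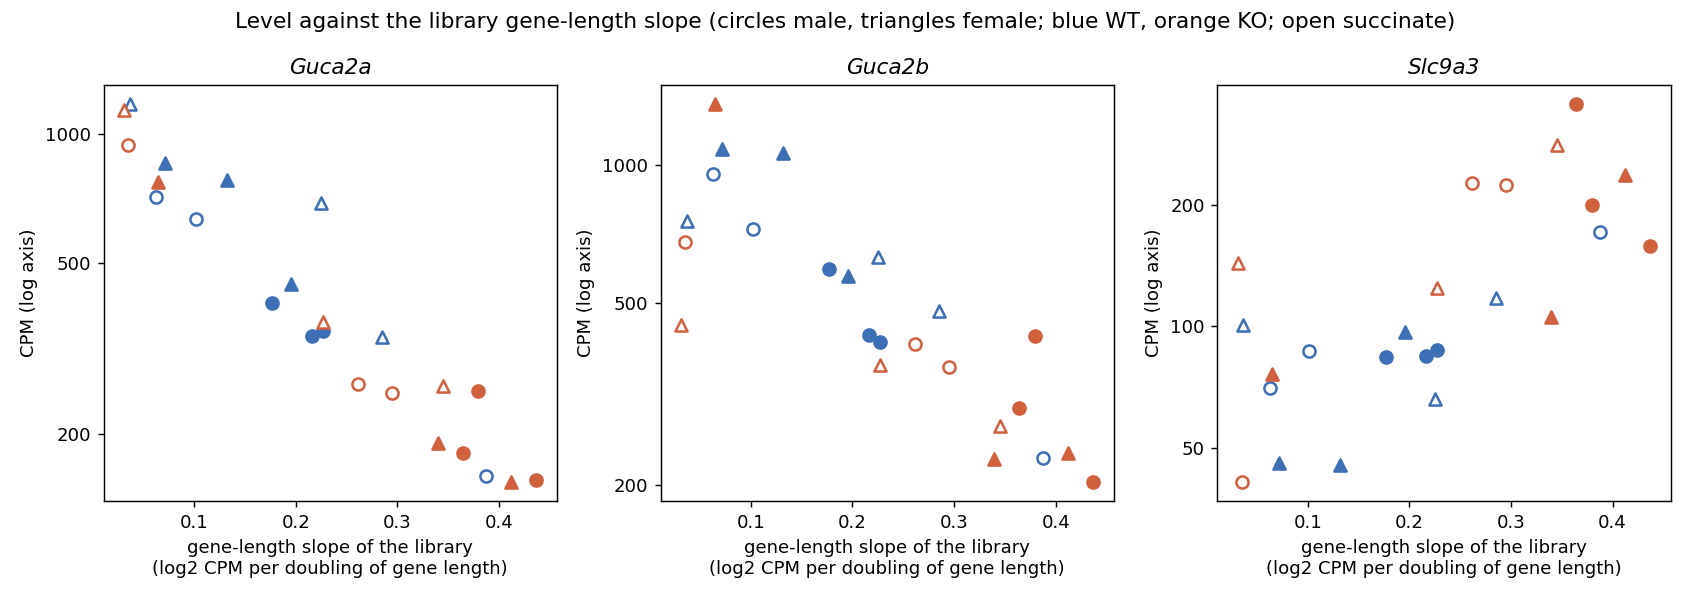
CPM (log axis) of Guca2a, Guca2b and Slc9a3 against the gene-length slope of each library (log2 CPM per doubling of gene length); circles are males, triangles females, blue WT, orange KO, open points succinate. Both peptide genes decline with the slope (r = −0.96 and −0.85 on log2 CPM) and Slc9a3 increases (r = 0.72), and the KO control males lie at slopes of 0.36 to 0.44.

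Gucy2c, the receptor of both peptides, was at 157, 211 and 222 CPM in WT and 233, 257 and 263 CPM in KO control males. The groups did not overlap, by a small margin, and the log2 fold change was 0.34 (SE 0.14, adjusted p = 0.18). In KO males given succinate it was at 86.9, 224 and 207 CPM, all below the KO controls (−0.53, SE 0.33, adjusted p = 0.63). Without KO succinate male 1, the library with the fewest counts, the value was −0.24. Between these groups 5 of 15 marker lists did not overlap, where 23% of all genes did not. With succinate enterocyte markers (31746 to 53592 CPM against 20177 to 31342 CPM), smooth muscle markers (2667 to 2855 CPM against 1719 to 2655 CPM) and heart markers (37.7 to 196 CPM against 12.7 to 30.5 CPM) were higher. Proximal intestine markers (108 to 452 CPM against 499 to 627 CPM) and those of interstitial cells of Cajal were lower. Their part in the succinate values of KO males was not tested. In the other groups the means were 177 ± 26.4 CPM in WT succinate males, 189.8 ± 40.0 CPM in WT control females, 118 ± 68.7 CPM in WT succinate females, 160.2 ± 85.8 CPM in KO control females and 149.6 ± 33.5 CPM in KO succinate females (SD, n = 3). Neighbouring groups in the order of Gucy2c levels overlapped, with the exception of KO control males, at the top, over WT control males.

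Ano1, the calcium-activated chloride channel gene, was low in abundance, and its control groups had little spread. In control males it was at 7.68, 7.71 and 7.37 CPM in WT and 12.8, 12.1 and 13.6 CPM in KO mice (log2 fold change 0.74, SE 0.14, adjusted p = 0.037), which passed the test but not the 2-fold threshold. In control females it was at 6.63, 5.55 and 6.67 CPM in WT and 10.02, 13.5 and 11.3 CPM in KO mice (0.92, SE 0.23, adjusted p = 0.37). All KO controls of either sex were thus above all WT controls. In control females B cell follicle markers (5 of 5 found) also did not overlap, at 20.9 to 51.2 CPM in KO and 9.56 to 16.3 CPM in WT mice, nor did the lung markers, at 10.4 to 16.5 CPM in KO and up to 0.33 CPM in WT mice. Their part in the genotype values of control females was not tested. With the correction for gene length the value in males was 0.58 (adjusted p = 0.091), and its adjusted p without each library in turn ranged from 0.036 to 0.13.

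With succinate, Ano1 lay above its controls in 1 stratum and below them in another. In WT females it was at 17.1, 15.7 and 12.9 CPM with succinate, above all 3 controls (log2 fold change 1.30, SE 0.26, adjusted p = 0.36; DESeq2 adjusted p = 0.0020). Without WT succinate female 3 edgeR called it (1.43, SE 0.25, adjusted p = 0.039), in a fit that called 597 of 18493 genes. In KO males it was at 3.84, 8.68 and 10.6 CPM with succinate, below all 3 controls (−0.68, SE 0.33, adjusted p = 0.60; −0.44 without KO succinate male 1, where Ano1 had 14 counts). KO females given succinate were at 11.1, 14.8 and 43.5 CPM and WT males given succinate at 12.7, 2.41 and 4.82 CPM, overlapping their controls. The difference between females and males in the succinate effect, a comparison added after these values were seen, was 1.58 on the log2 scale (SE 0.48, adjusted p = 0.28) for Ano1, and 0.0738% of all genes were called in it. At an unadjusted p under 0.05 it held Ano1 and Guca2b (−1.18, SE 0.57, adjusted p = 0.60), 2 of 10 members against 8.27% of genes. The Guca2b value was −0.48 without KO control female 3. Averaged over the 24 libraries, Ano1 had a log2 fold change of 0.63 in KO over WT mice (SE 0.24, adjusted p = 0.32) and of 0.58 in females over males (SE 0.24, adjusted p = 0.26). Without KO succinate female 3 these were 0.42 and 0.37. The other markers of interstitial cells of Cajal (Kit, Etv1 and Gja1, 3 of 3 detected) differed between these groups too: they summed to 53.2 to 102 CPM in WT succinate females against 35.5 to 41.4 CPM in their controls, to 45.7 to 50.5 CPM in KO control males against 38.3 to 41.9 CPM in WT control males, and to 21.7 to 41.4 CPM in KO succinate males. Where Ano1 overlapped its controls, they summed to 68.2 to 98.6 CPM in KO succinate females against 27.8 to 51.8 CPM in their controls, and to 43.3 to 61.2 CPM in WT succinate males. Smooth muscle markers summed to 3859 to 7649 CPM in WT succinate females and 3225 to 4122 CPM in their controls. WT succinate female 2, the library with heart markers, held the 102 CPM and had 7441 CPM of smooth muscle markers. WT succinate females 1 and 3 were at 59.0 and 53.2 CPM for the interstitial cell markers. The part of these cells in the Ano1 values was not tested.

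Slc4a4, the basolateral bicarbonate cotransporter gene, and Slc26a3, the apical chloride bicarbonate exchanger gene, were lower in females given succinate in most libraries. Slc4a4 was at 68.1, 50.4 and 54.0 CPM in WT control females and at 19.6, 25.2 and 62.0 CPM in WT succinate females. In KO females it was at 61.4, 82.5 and 64.6 CPM without and 46.1, 29.1 and 55.6 CPM with succinate, with no overlap (log2 fold change −0.70, SE 0.31, adjusted p = 0.47). Slc26a3 was at 108, 70.4 and 102 CPM in WT control females and at 32.0, 21.3 and 106 CPM in WT succinate females. In KO females it was at 74.4, 95.4 and 116 CPM without and 65.6, 28.7 and 66.6 CPM with succinate, again with no overlap (−0.85, SE 0.37, adjusted p = 0.47; −0.55 without KO succinate female 2). In both genes WT succinate female 3 sat within its controls. It was the WT female with lung markers, at 14.3 CPM, and it had the lowest tuft cell marker sum of the succinate females, 98.7 CPM against 151 to 327 CPM. With all 6 libraries edgeR called neither gene in WT females. The values with the correction for gene length were −0.78 for Slc4a4 (adjusted p = 0.64) and −0.84 for Slc26a3 (adjusted p = 0.70). Without WT succinate female 3 both genes were called, at −1.31 for Slc4a4 (SE 0.25, adjusted p = 0.044) and −1.76 for Slc26a3 (SE 0.30, adjusted p = 0.037). That fit called 597 genes against 0 with all libraries. Markers of distal ileum and colon (4 of 5 found) were lower in the same libraries: their sum was 955 to 2231 CPM in WT control females and 85.4 and 259 CPM in WT succinate females 2 and 1, against 968 CPM in replicate 3. In KO females it was 356, 613 and 1678 CPM without and 235, 99.1 and 44.99 CPM with succinate, also without overlap. Markers of proximal intestine (4 of 4 found) summed to 710, 306 and 619 CPM in WT control and 112, 73.7 and 566 CPM in WT succinate females, and to 345 to 454 CPM in KO control and 38.4 to 294 CPM in KO succinate females. By medians over the 24 libraries the proximal sum was mostly Lct, at 308 CPM, which is also among the enterocyte markers. The distal sum was mostly Fabp6, at 915 CPM against 52.4 CPM for Slc10a2, the next highest. Enterocyte markers, of the cells that carry these transporters, were lower with succinate in both genotypes without overlap, at 45114 to 51363 CPM in WT control and 26511 to 35615 CPM in WT succinate females, and at 21058 to 55582 CPM in KO control and 16895 to 20078 CPM in KO succinate females. The part of these markers in the values was not tested.

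In males Slc4a4 was at 62.5, 45.5 and 51.4 CPM in WT and 72.1, 81.8 and 90.8 CPM in KO mice given succinate, with no overlap (log2 fold change 0.64, SE 0.27, adjusted p = 1.00). B cell follicle markers did not overlap either, at 75.0 to 90.3 CPM in WT and 10.9 to 28.5 CPM in KO mice, nor did those of interstitial cells of Cajal, at 43.3 to 61.2 CPM in WT and 21.7 to 41.4 CPM in KO mice, and their part was not tested. Control males were at 62.2, 67.4 and 89.3 CPM in WT and 74.1, 94.1 and 92.6 CPM in KO mice, which overlapped. Averaged over the 24 libraries, Slc4a4 had a log2 fold change of −0.48 with succinate (SE 0.16, adjusted p = 0.17), of −0.54 in females over males (SE 0.16, adjusted p = 0.14) and of 0.36 in KO over WT mice (SE 0.16, adjusted p = 0.36). None of these was called, beside backgrounds of 0.728% for succinate and 0.36% for sex. In males Slc26a3 stayed between 55.3 and 106 CPM in every library except KO succinate male 1, at 22.2 CPM.

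Slc12a2, the basolateral chloride loader NKCC1, stood out in 1 group. It was at 93.9, 117 and 100.2 CPM in KO succinate females, above all other 21 libraries, whose values ran from 32.3 to 81.6 CPM. The log2 fold change was 0.92 over KO control females (SE 0.34, adjusted p = 0.44) and 0.69 over WT succinate females (SE 0.29, adjusted p = 0.93). The interaction of genotype and succinate in females was 0.93 (SE 0.46, adjusted p = 0.75). Stem and crypt markers other than Slc12a2 itself (5 of 5 detected) summed to 575 to 610.1 CPM in that group, above KO control females at 196 to 529 CPM and WT succinate females at 200.4 to 398 CPM without overlap. In the other libraries they reached 644 CPM, in KO control male 1. Their part in the Slc12a2 values was not tested. Averaged over the libraries, Slc12a2 had a log2 fold change of 0.31 in females over males (SE 0.14, adjusted p = 0.30).

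Cftr, the apical chloride channel gene, followed the same group less closely. It was at 43.5, 46.2 and 43.1 CPM in KO succinate females against 26.1, 15.9 and 36.003 CPM in WT succinate females (log2 fold change 0.77, SE 0.34, adjusted p = 0.93; 0.50 without WT succinate female 2). The stem and crypt markers given above separate the same groups. The 3 libraries highest in Cftr outside KO succinate females, KO control male 1 at 48.6 CPM, WT succinate male 1 at 47.3 CPM and KO control female 1 at 45.4 CPM, also had the highest sums of those markers outside that group, at 644, 566 and 529 CPM. Their part in the Cftr values was not tested. Elsewhere its group means lay between 26.0 ± 10.04 CPM in WT succinate females and 37.5 ± 9.72 CPM in KO control males (SD, n = 3), and neighbours in that order overlapped. Slc26a6, the PAT-1 gene, had group means from 293 ± 29.4 CPM in KO succinate females to 415 ± 23.0 CPM in WT control females (SD, n = 3). Its groups overlapped in all 8 comparisons of 2 groups.

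Across the 8 comparisons of 2 groups, edgeR called 1 member, Slc9a3, in control males and 0 members in the other 7. The share of all genes called was 0.739% in control males, 0.0879% for succinate in KO females, 0.0158% for genotype in control females and 0% in the other 5. At an unadjusted p under 0.05 there were 5 of 10 members in control males against 25.2% of all genes, 2 of 10 in control females against 11.1%, and 0 of 10 for succinate in WT males against 4.07%. In each of the other 5 it was 1 of 10, against 7.75% of genes for succinate in KO males, 7.77% in WT females and 10.7% in KO females, and 2.72% for genotype in succinate males and 4.52% in succinate females. Groups without overlap were found for 4 of 10 members in control males, where 31.4% of all genes did not overlap, and for 4 of 10 between genotypes in succinate females, where 10.8% did not. With succinate 2 of 10 members did not overlap in KO males (23% of genes), 3 of 10 in KO females (21.2%), 1 of 10 in WT females (13.3%) and 0 of 10 in WT males (8.77%). For genotype it was 1 of 10 in control females (18.9%) and 1 of 10 in succinate males (8.66%). An adjusted p under 0.05 at any fold change was reached by 3 of 10 members in control males, against 4.23% of genes, and by 0 elsewhere. The median log2 fold change of the 10 members in control males was 0.23, beside 0.02 over all genes. The 3 averages over the 24 libraries called 0 members (4 of 10 at an unadjusted p under 0.05 for genotype, 1 of 10 for succinate and 3 of 10 for sex, against 13.4%, 16.1% and 15.3% of genes). The 3 interactions called 0 members and held 0 at an unadjusted p under 0.05 (against 3.8% of genes in males and 6.46% in females for genotype by succinate, and 4.64% for sex by genotype in controls), so none of the differences between strata above was shown by a test. DESeq2 called 1 member in each of 3 comparisons: Slc9a3 in control males and in the genotype average, and Ano1 in WT females given succinate. Over all genes it called 311 of 19218, 60 of 21694 and 258 of 18872 in these, in that order. The comparisons share groups: the control males of each genotype enter both a genotype and a succinate comparison.

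**Figure D4:**
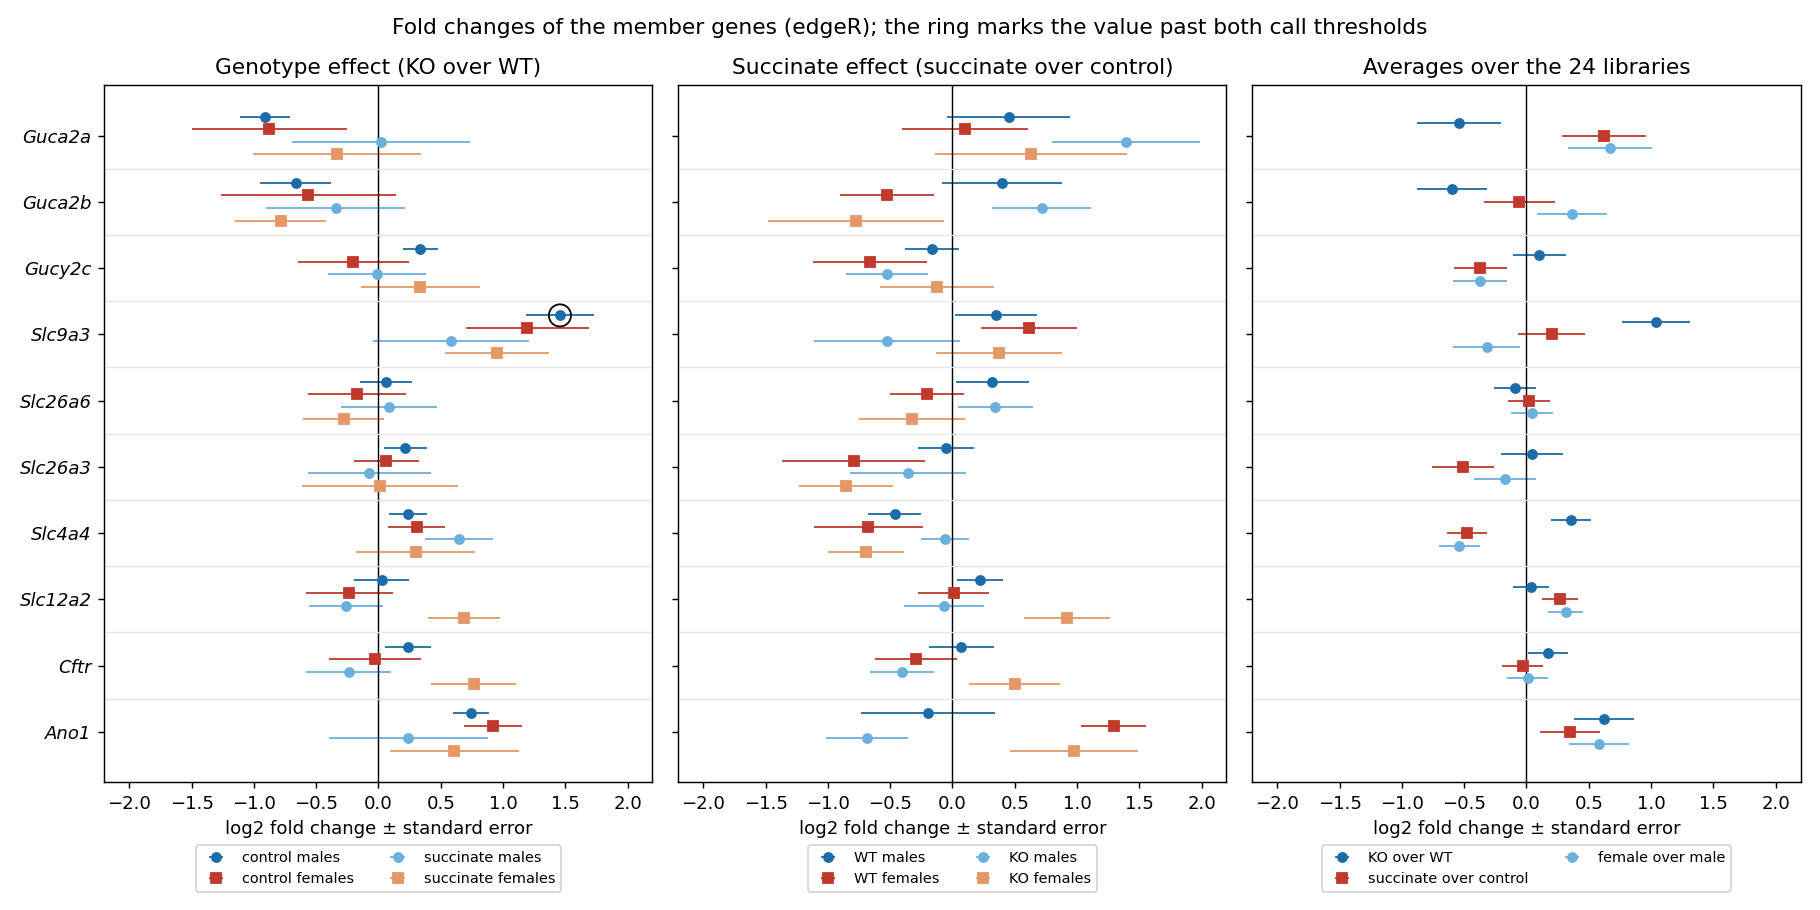
Log2 fold changes (points) with standard errors (bars) of the 10 genes from edgeR, for genotype in 4 strata, succinate in 4 strata and the averages over 24 libraries. The ring marks Slc9a3 in control males (1.46), the one value past both thresholds; the values of Guca2a and Guca2b for genotype lie at or below 0.02, and those of Slc9a3 above 0.

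Genes whose log2 CPM followed each member most closely were sought among 13937 named genes over the 24 libraries. Guca2a was closest to Rps12-ps3 (r = 0.98) and Rpl35a (r = 0.98), a pseudogene and a gene of ribosomal proteins. Guca2b was closest to Ifi30 (r = 0.96) and Ccs (r = 0.95), and Gucy2c to Tgoln1 (r = 0.97) and Cttn (r = 0.96). Slc9a3 was closest to Flrt3 (r = 0.92) and Hif1a (r = 0.89), Slc26a3 was close to Aldh9a1 (r = 0.96), and Slc26a6 was closest to Nat8 (r = 0.92) and Gpaa1 (r = 0.91). Slc4a4 was closest to Rnf24 (r = 0.94) and Pik3ap1 (r = 0.93), Slc12a2 to Heatr3 (r = 0.89) and Umps (r = 0.88), Cftr to Hells (r = 0.91) and Trim37 (r = 0.89), and Ano1 to Fn1 (r = 0.88) and Myo1c (r = 0.87). Over deviations from group means these values of r lay between 0.79 and 0.98. Among pairs of members, after the 2 peptide genes, the largest values were r = 0.83 for Slc26a6 and Guca2b, −0.75 for Slc9a3 and Guca2b, −0.73 for Cftr and Slc26a6, and −0.72 for Slc9a3 and Guca2a. The points share libraries and depth, and these are descriptions of likeness only.

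Other genes of the pathway were followed in 3 lists. Of 18 partners of apical chloride and bicarbonate secretion (potassium channels, other anion channels, the sodium pump and receptors that raise cyclic AMP), 16 were tested, and 0 were called in any comparison. Of 18 genes of guanylate cyclase C signalling and its scaffolds, 15 were tested and 0 were called. Of 15 genes of sodium proton exchange and bicarbonate handling, 14 were tested and 1 was called, Car4, which encodes the membrane-anchored carbonic anhydrase IV (ENSMUSG00000000805, chr11:84848612-84856870). Car4 was at 104 to 111 CPM in WT control males and 127 to 497 CPM in WT males given succinate. KO males were at 97.0 to 143 CPM without and 141 to 249 CPM with succinate. In control females it was at 163 to 179 CPM in WT and 108 to 151 CPM in KO mice. In females given succinate it was at 1302, 899 and 218 CPM in WT and 594, 1691 and 899 CPM in KO mice. The average succinate effect was 1.85 (SE 0.26, adjusted p = 0.00042), called in all 10 other settings and without each of the 24 libraries in turn. The average difference of females over males in Car4 was 1.18 (SE 0.25, adjusted p = 0.035). It was called in 7 of the 10 other settings, and voom gave 0.91. Its adjusted p without the 3 libraries that stood apart was 0.10. When each library was left out in turn, the call held in only 6 of 24 fits. In control males Slc26a2 of this list (0.75, SE 0.13, adjusted p = 0.033) passed the test but not the 2-fold threshold; it was named after its value was seen. The medians of the 3 lists in control males were 0.15, 0.22 and 0.23, beside 0.02 over all genes.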

How the data were processed

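RNA from the distal jejunum of 24 mice was extracted with TRIzol, selected for poly(A), made into stranded libraries and sequenced with paired 150-base reads. The authors trimmed reads with Cutadapt, aligned them with HISAT2, assembled transcripts with StringTie, merged them with gffcompare and estimated expression with StringTie and ballgown; the build was GRCm39 per the submitters' processing notes. The program that made the deposited counts is not given in the sources used here. The authors deposited counts per gene, not normalized, and FPKM per gene, which divides by length and library total. Columns were mapped by title, and 0 columns belonged to no sample.

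From the counts, edgeR 4.0.16 (R 4.3.3) tested genes that reached 10 counts in 3 or more libraries, with TMM scaling and the quasi-likelihood test. Each 2-group comparison used its 6 libraries, each interaction its 12, and each average all 24. Called means a Benjamini-Hochberg adjusted p under 0.05 over all genes tested and a change of at least 2-fold. The 8 comparisons of 2 groups, 3 averages and 3 interactions were listed first, and the sex by succinate interaction and the ratio of the peptide genes were added after values were seen. Alternatives were DESeq2 1.42.0 and its size factors, limma 3.58.1 (voom with quality weights, and log2(FPKM + 1) for a mean FPKM of at least 0.5), other filters, a gene-length offset from the ratio of counts to FPKM, the replicate number as a block, and leaving out libraries. Tests were checked on simulated counts.

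The members and gene lists were chosen with earlier results of these data known. All members were named; fold changes are given for those at an unadjusted p under 0.05 or with groups that do not overlap, and list genes for calls (at most 4 per comparison). The 2 genes most like each member came from genes with a mean CPM of at least 1 and a name other than Gm or Rik, with a prior count of 2. Marker sums leave out the members. Some items that these rules name are not reported here, and 1 marker of interstitial cells of Cajal was left out of its sum. The deposited tables were compared over 276 pairs of libraries, of which 0 were identical. Replicates are separate mice. Values in CPM rest on 14 to 57437 counts for each member and library.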

Additional observations from a re-analysis of the deposited data

Results flagged for a closer look

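Ano1 lay on opposite sides of the controls with succinate in 2 strata, where no succinate library overlapped a control library: the log2 fold change was 1.30 in WT females (higher in 3 of 3 mice) and −0.68 in KO males (lower in 3 of 3 mice). Leaving out each library in turn gave 1.20 to 1.43 in WT females and −0.93 to −0.44 in KO males, the latter without KO succinate male 1, the library with the fewest counts, where Ano1 had 14 counts. The difference between these strata was not tested as such; the sex by succinate interaction for Ano1 over both genotypes had an adjusted p of 0.28 in edgeR, from 0.077 to 0.62 over its other settings.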

How the results depend on the processing

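All 29 fold changes of members given above kept their sign under every alternative run; of the 150 member and comparison values in all, 73 changed sign under at least 1, and the size of some of the 29 moved by over 1.5 times. By log2(FPKM + 1) the value was 0.03 for Slc4a4 by genotype in succinate males, −0.41 for it with succinate in KO females and −0.31 for its sex average. The same setting gave 0.76 for Gucy2c by genotype in control males and −1.27 for it with succinate in KO males. For Ano1 it gave 0.69 with succinate in WT females, 0.47 by genotype in control females, 0.36 for the genotype average and 0.97 for the sex by succinate interaction. Voom gave −0.49 for Slc26a3 and 0.59 for Slc12a2 with succinate in KO females, −0.43 for Ano1, −0.32 for Gucy2c and 0.44 for Guca2a with succinate in KO males, and −1.01 for the genotype average of Guca2b. The length offset gave 0.36 for Guca2a with succinate in KO males, 0.20 for the genotype average of Slc4a4 and −0.63 for the sex by succinate interaction of Guca2b (−0.51 by voom). The Slc9a3 call in control males was kept with DESeq2 and its size factors, voom, log2(FPKM + 1), no filter and the stricter filter, and 0 members were called there with the length offset, the replicate block, both, or all 24 libraries in 1 fit (3 members with no fold change threshold; 0 to 1 when each library was left out). Elsewhere 0 members were called, against 1 by DESeq2 in WT females given succinate and in the genotype average, 2 by voom in succinate males (Slc9a3 and Ano1), 3 by voom in control females and in the genotype average (Slc9a3, Guca2a and Guca2b in both), and, leaving out 1 library, 0 to 3 in WT females given succinate, 0 to 2 in control females and 0 to 1 in the genotype average. The cause of these differences was not tested. Totals over all genes varied more. In control males 142 genes were called, from 1 (all 24 in 1 fit) to 577 (voom), and 2 without KO control male 3. The succinate average called 158, from 70 on log2(FPKM + 1) to 798 by voom; the sex average 78, from 37 with the stricter filter to 427 without WT succinate female 3; the genotype average 4, from 1 without the 3 libraries that stood apart to 1539 by voom. Succinate in KO females called 17, from 0 with the replicate block to 436 by DESeq2. Genotype called 3 in control females, from 0 with the block to 1972 by voom, and 0 in succinate males and succinate females, up to 1799 by voom and 28 by DESeq2. Succinate called 0 in WT males, KO males and WT females, up to 1498 by voom, 39 by DESeq2 and 597 without WT succinate female 3. The 3 interactions called 0, up to 65 by DESeq2. The sex by succinate interaction called 16, from 0 with the block to 207 by DESeq2. Replicate numbers did not pair the mice: same-numbered libraries of 2 groups correlated at −0.48 to 0.31, and in 0 of 8 comparisons was each library closest to its own number. The replicate block left 5 calls of 142 in control males (Slc9a3 1.37, adjusted p = 0.062), took the sex average of Car4 over its threshold (adjusted p = 0.056) and changed no other call of a member. Depth limits Ano1 most, with 14 counts in the shallowest library.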

Other observations

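The ratio of Guca2a to Guca2b in FPKM ran from 0.83 to 1.22 in KO control females and from 1.41 to 3.72 in KO succinate females, without overlap, and from 1.08 to 1.15 in WT control females and 1.02 to 2.28 in WT succinate females. In males it ran from 0.87 to 1.28, with 2.03 in KO succinate male 1 as the exception. Averaged over the 4 strata of sex and genotype, the log2 ratio was 0.46 higher with succinate (exact permutation test within strata, two-sided, 160000 arrangements, p = 0.013), and 0.34 higher without the 3 libraries that stood apart (p = 0.068, exact permutation test). By stratum the difference was −0.005 in WT males, 0.38 in KO males, 0.47 in WT females and 0.99 in KO females. Without KO succinate male 1 it was 0.03 in KO males. This was 1 ratio, chosen with its test after its values were seen, so the p-values do not show a succinate effect. Paneth cell markers, which summed to 44315 CPM in the library with the highest ratio, KO succinate female 2, and 38956 CPM in the next, WT succinate female 1, lay between 5307 and 24648 CPM in the other libraries, and were at 18585 CPM in the library with the third highest ratio, KO succinate male 1. The same 3 libraries had the lowest gene-length slopes of the series, at 0.031, 0.037 and 0.035 in that order. The part of the markers and of the slope in the ratio was not tested.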
